A study of Mus musculus with 2 samples.

Results

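The CC chemokines examined here are 10 genes, Ccl2, Ccl3, Ccl4, Ccl5, Ccl6, Ccl7, Ccl8, Ccl9, Ccl12 and Ccl24, followed by symbol through 22 deposited tables of single interstitial cells from the infarcted mouse ventricle. They are 10 of 15181 distinct genes in those tables. All 10 have a value in each of 4 fibroblast subcluster tables, which gives 40 pairs of values, and 6 of them appear in the tables of 18 whole clusters, in 17 rows. Mice of 8 to 10 weeks had the left anterior descending artery ligated, which causes a myocardial infarction (MI), and were fed chow with 0.4 g/kg tamoxifen from then on. Hearts were collected 6 days after MI per the labels. The control library came from PostnMCM hearts, in which a tamoxifen-inducible Cre recombinase is expressed from the Postn locus, active in fibroblasts that become myofibroblasts. The other library came from Yapfl/fl;Wwtr1fl/+;PostnMCM hearts, in which both alleles of Yap and 1 allele of Wwtr1 are flanked by loxP sites. Both strains carried the R26-eGFP transgene, and both received Cre and tamoxifen, so neither is an untreated heart. Each genotype is 1 droplet library, the number of hearts in it is not given in the sources used here, and no value below has a replicate or an error. The study describes 6 fibroblast subclusters, and its libraries were compared in 4 of them. Subcluster 1, per the study mostly from the Yap/Wwtr1-depleted hearts, has no values here. Neither has subcluster 2, mostly from control hearts and described there as enriched for chemotactic genes.

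Chemokines are small secreted proteins that guide white blood cells along a gradient, and the CC class is named for a pair of adjacent cysteines near the start of the mature protein. They bind receptors named Ccr on monocytes, T cells, natural killer cells, eosinophils and dendritic cells, and many of them are made on demand when NF-kB is activated by tumour necrosis factor, interleukin-1 or microbial products. After MI, Ccl2 from stromal cells and macrophages is known for drawing Ccr2-bearing monocytes into the injured wall, while other members are made mostly by the white cells themselves.

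Of the 10 genes, 9 lie on chromosome 11 in 2 groups of neighbours (GRCm39, GENCODE release M39, all of them protein-coding). The first group runs from Ccl2 (81926397 to 81928279) through Ccl7 (81936532 to 81938351) and Ccl12 (81992645 to 81994466) to Ccl8 (82006007 to 82007625), all on the plus strand, and holds the monocyte chemoattractant proteins. The second runs from Ccl5 (83416602 to 83425942) through Ccl9 (83463745 to 83473161), Ccl6 (83478708 to 83483913) and Ccl3 (83538670 to 83540191), all on the minus strand, to Ccl4 (83553383 to 83555509) on the plus strand. Ccl24 lies apart, on chromosome 5 (135598668 to 135601905, minus strand).

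RefSeq promoter sequences (build GRCm38.p6) were at hand for 5 of the 10 genes, namely Ccl3, Ccl6, Ccl8, Ccl9 and Ccl12. The 250 bases before the gene start are shown for Ccl6 and Ccl9, since these neighbours had the highest shares of fibroblasts with a count and moved in opposite directions in one fibroblast subcluster. Capitals mark AGGAAG or its reverse complement, a form of the sequence that ETS factors such as the myeloid regulator PU.1 bind.
Ccl6: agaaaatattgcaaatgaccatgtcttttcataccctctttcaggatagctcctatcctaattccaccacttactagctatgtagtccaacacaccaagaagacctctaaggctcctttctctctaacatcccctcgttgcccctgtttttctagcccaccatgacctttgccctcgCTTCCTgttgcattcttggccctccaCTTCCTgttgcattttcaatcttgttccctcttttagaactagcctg
Ccl9: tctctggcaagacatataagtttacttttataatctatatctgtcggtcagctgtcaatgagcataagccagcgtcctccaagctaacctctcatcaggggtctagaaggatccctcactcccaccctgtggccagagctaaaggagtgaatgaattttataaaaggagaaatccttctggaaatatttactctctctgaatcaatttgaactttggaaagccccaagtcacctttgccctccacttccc

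The Ccl6 window held AGGAAG at positions -73 and -47 from the gene start. The Ccl9 window did not hold it, but does hold GGAA, the shorter core of such sites. Of 32851 promoter windows of the same length, 29.5% held AGGAAG on either strand, as did 3 of the 5 members. The Ccl9 window held a form of the NF-kB motif, GGG, any 2 bases and TTTCC, at -35 and TGANTCA, the AP-1 motif, at -53, which 1.41% and 6.75% of all windows held. GGAATG, the motif of the TEAD factors through which YAP and TAZ act, was in none of the 5 windows and in 12.6% of all windows. TTCNNNGAA, the STAT motif, was in none of the 5 and in 7.02% of all windows, and TATAAA was in 3 of the 5 and in 12.4%. The motifs were searched on both strands and a match is a run of letters, not a bound site.

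All shares are the authors' deposited values for a library and a population, given as the percent of cells with a corrected count above 0. They depend on that correction, which was made separately for the clusters and the subclusters, and do not say how much each cell held. Differences are the library labelled depleted minus the control library, in percentage points, and a share is called higher or lower from 10 points on. Shares move in steps, and the library labelled depleted in subcluster 4 is the coarsest, with 11 different shares 10 points apart over all 15059 genes. Its steps were 3.1 to 3.2 points in subcluster 0, 4.3 to 4.4 in subcluster 3 and 4.7 to 4.8 in subcluster 5, so a difference near 10 points rests on 1 to 4 steps. Steps this wide come from small numbers of cells, which the tables do not give.

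The targeted genes did not separate the libraries. In the order of subclusters 0, 3, 4 and 5, Yap1 was counted in 46.2%, 23.3%, 57.5% and 30.4% of control cells and in 56.2%, 43.5%, 40% and 47.6% of the cells labelled depleted. Wwtr1 was at 81.4%, 93.3%, 80% and 100% in the control and at 90.6%, 91.3%, 60% and 85.7% in the other library. A 3′ count that lies outside the deleted exons does not check the deletion, and where the loxP sites lie is not given in the sources used here. The second library is therefore called the library labelled depleted, and the direction of each comparison rests on that label. Of the 6 fibroblast markers, Col1a1, Col1a2, Col3a1 and Dcn were counted in 100% of cells of both libraries in all 4 subclusters. Pdgfra differed, at 38.6% and 71.9% in subcluster 0 and at 66.7% and 87% in subcluster 3, as did Lum in subcluster 3 (26.7% and 47.8%). Genes used as markers of other cells were also counted in these fibroblasts. S100a9, a neutrophil gene, was counted in 85% to 96.7% of control fibroblasts and in 38.1% to 60% of those of the library labelled depleted. In the table of the whole fibroblast cluster, which was normalized separately, the shares of S100a9 were 49.7% and 9.1%. C1qb, a macrophage gene, was at 77.5% to 82.8% in the control and at 10% to 47.6% in the other library, whereas Csf1r, a macrophage gene too, was above the control in 3 of the 4 subclusters. S100a9 was also lower in the library labelled depleted in 13 of the 13 cluster tables that list it, B cells included (79.7% against 58.3%). Col3a1 was lower there in 9 of the 9 tables of clusters other than fibroblasts that list it.

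In the 4 fibroblast subclusters compared, only Ccl5 and Ccl6 passed 10 points in the same direction each time. Over the 4 subclusters, 7 of the 40 shares were higher in the library labelled depleted, where 17.4% of all genes' shares were, and 13 were lower, where 15.4% of all genes' shares were. As a percent of the 40, 17.5% were higher, which is near the level of all genes, and 32.5% were lower. Among the 14 shares of at least 25% in either library, 4 were higher (24.6% of all such shares) and 7 lower (21.0%). Of those higher, Ccl2 in subclusters 3 and 4 and Ccl7 in subcluster 4 met 25% only in the library labelled depleted. Of those lower, Ccl2 in subcluster 5 and Ccl5 in subcluster 4 met it only in the control. This filter thus partly selects for the difference that is counted. Of the 13 lower shares, 8 belong to Ccl5 and Ccl6, each of which was lower in all 4 subclusters. How many of all genes were lower in all 4 was not counted. Of the 7 higher shares, 4 belong to Ccl2 and Ccl7.

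**Figure D1:**
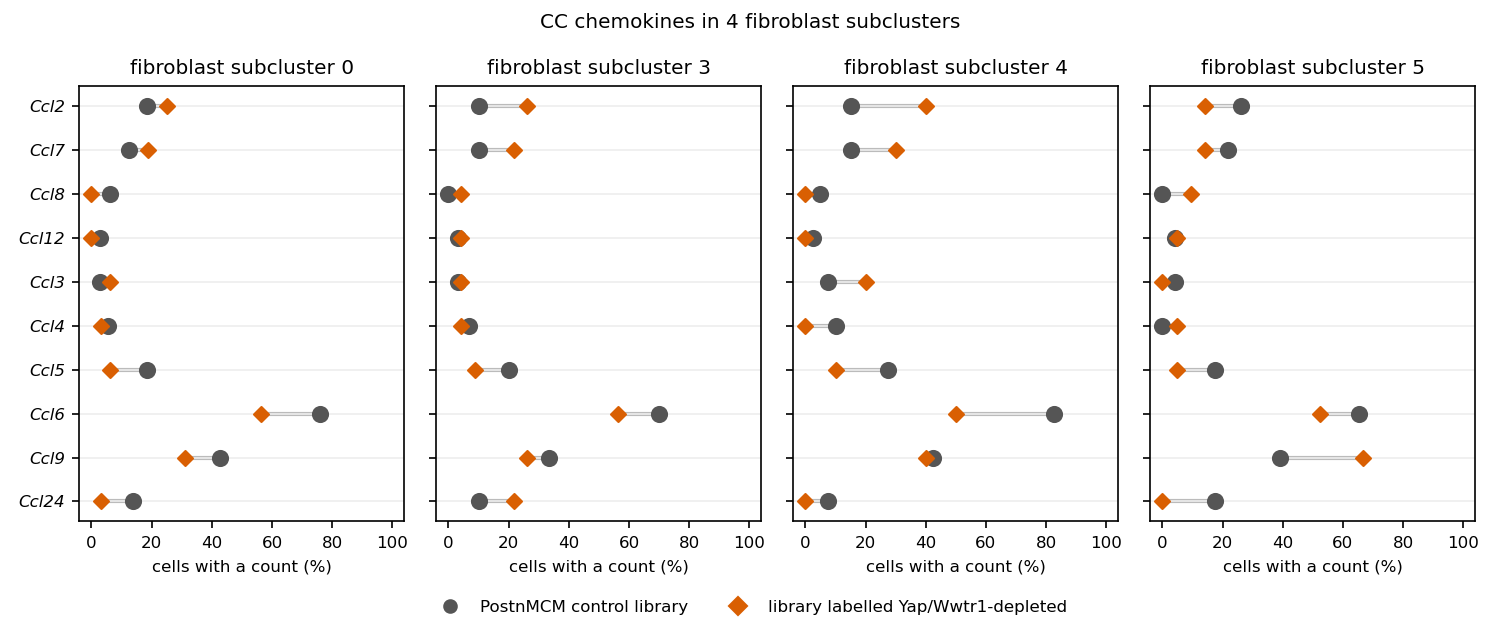
Percent of fibroblasts with a count (horizontal axis) for each CC chemokine in 4 fibroblast subclusters, with the PostnMCM control library as grey circles and the library labelled Yap/Wwtr1-depleted as orange diamonds. The diamonds of Ccl5 and Ccl6 sit left of the circles in all 4 panels, while those of Ccl2 and Ccl7 sit to the right in subclusters 0, 3 and 4 and to the left in subcluster 5.

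Ccl2, the main attractant of Ccr2-bearing monocytes, was counted in 18.6% of control cells and 25% of cells of the library labelled depleted in subcluster 0. In subcluster 3 the shares were 10% and 26.1%, and in subcluster 4 they were 15% and 40%. In subcluster 5, which had the highest Postn shares of the 4 subclusters (87% and 100%), they were 26.1% and 14.3%. Ccl2 thus differed by 6.4, 16.1 and 25 points in subclusters 0, 3 and 4 and by -11.8 points in subcluster 5.

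Ccl7, its neighbour on chromosome 11 and a further monocyte attractant, took the same direction as Ccl2 in each subcluster. Its shares were 12.4% in the control library and 18.8% in the library labelled depleted in subcluster 0, and 10% and 21.7% in subcluster 3. In subcluster 4 they were 15% and 30%, and in subcluster 5 they were 21.7% and 14.3%. The differences of 11.7 and 15 points in subclusters 3 and 4 passed 10 points, and those of 6.4 and -7.4 points in subclusters 0 and 5 did not.

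The other members of this chromosomal group, Ccl8 and Ccl12, were rarely counted. Ccl8, which binds Ccr8 in mice, was at 6.2% in control cells and 0% in the library labelled depleted in subcluster 0, at 0% and 4.3% in subcluster 3, at 5% and 0% in subcluster 4 and at 0% and 9.5% in subcluster 5. Ccl12, a mouse monocyte attractant, lay between 2.5% and 4.3% in control cells and between 0% and 4.8% in the library labelled depleted. None of these 8 differences reached 10 points. Zero shares say that the transcript was not detected in those cells, and since the tables give no number of cells no upper limit is given.

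Ccl6, a chemokine that mouse macrophages and neutrophils make in large amounts, had the highest mean share of the family over these 4 subclusters. It was counted in 75.9% of control cells and 56.2% of cells of the library labelled depleted in subcluster 0, and in 70% and 56.5% in subcluster 3. In subcluster 4 the shares were 82.5% and 50%, and in subcluster 5 they were 65.2% and 52.4%. It was lower in all 4 subclusters, with differences of -32.5 to -12.8 points. The values were 65.2% to 82.5% in the control and 50% to 56.5% in the other library. These 8 shares come from only 2 libraries and are not replicates of one another.

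Ccl5, which T cells and natural killer (NK) cells store and release, was counted in 18.6% of control cells and 6.2% of cells of the library labelled depleted in subcluster 0. The shares were 20% and 8.7% in subcluster 3, 27.5% and 10% in subcluster 4 and 17.4% and 4.8% in subcluster 5. Ccl5 was therefore lower in all 4 subclusters too, with differences of -17.5 to -11.3 points. No population that should lack Ccl5 was measured on the scale of the subclusters, so no expression by fibroblasts is read from these shares. Transcripts made by a fibroblast and free RNA from other cells cannot be told apart in such shares.

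Marker lists of immune cells were read beside both genes in the fibroblast subclusters. The 5 neutrophil markers summed to 208.7 to 255.2 percent in control fibroblasts and 103.1 to 142.8 percent in the library labelled depleted, with all 5 below the control in subclusters 0, 3 and 4 and 3 of 5 in subcluster 5. Cxcr2 was at 0% in the library labelled depleted in subclusters 0 and 3, and Retnlg in subcluster 4. The 2 of 5 NK markers with a value, Gzma and Nkg7, summed to 15.8 to 21.7 percent in control fibroblasts and 0 to 4.3 percent in the other library, where both were at 0% in subclusters 4 and 5. Ncr1, Klrb1c and Klra8 have no row in the subcluster tables. The 8 macrophage markers summed to 265.1 to 347.7 percent and 209.5 to 286.8 percent, but their members were mixed. All 8 were below the control in subcluster 0, while 4 were below and 4 above in subclusters 3 and 5 and 5 below and 3 above in subcluster 4. C1qb had the largest difference below 0 in each subcluster (-67.5 to -35 points). The 4 monocyte markers summed to 143.5 to 203.5 percent and 70 to 126 percent, with Chil3 below the control by the widest margin (-75.7 to -38.7 points) and Plac8 above it in all 4 subclusters (2.5 to 21.3 points). The 4 B cell markers (10 to 21.6 percent and 9.6 to 20 percent) and the 3 of 6 dendritic cell markers with a value (4.3 to 39.9 percent and 19.1 to 30 percent) overlapped between libraries. T cell markers went the other way, with 5 of 6 measured and sums of 13 to 33.4 percent in control fibroblasts and 56.2 to 110 percent in the library labelled depleted. The part of these transcripts in the shares of Ccl5 and Ccl6 was not tested.

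**Figure D2:**
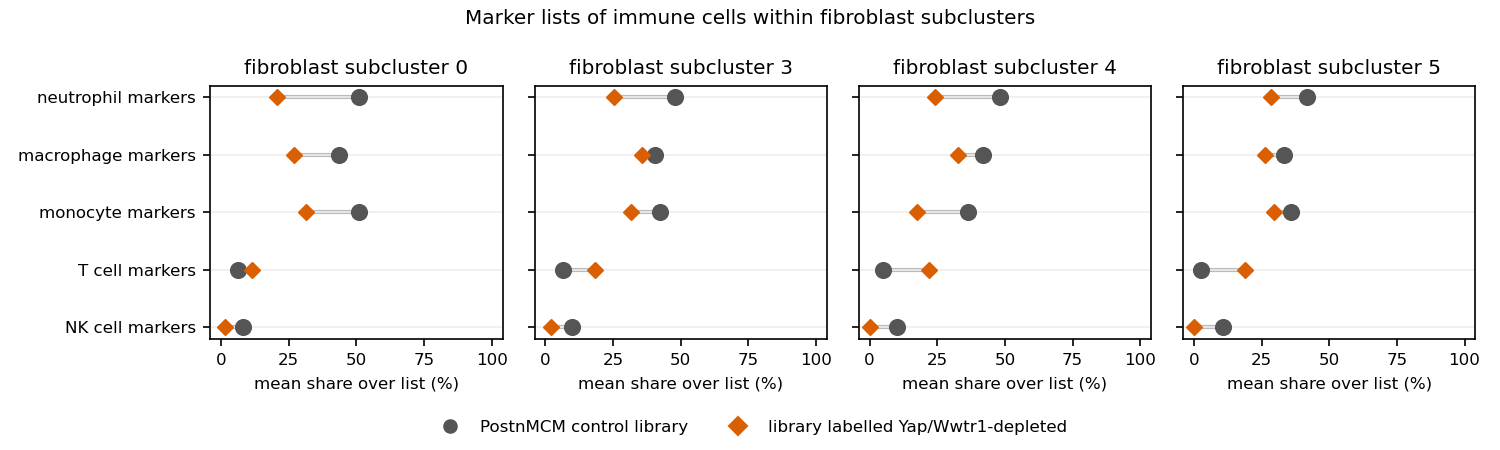
Mean percent of fibroblasts with a count (horizontal axis) over fixed marker lists of 5 immune cell types in each fibroblast subcluster, control library as grey circles and library labelled Yap/Wwtr1-depleted as orange diamonds. Neutrophil markers averaged 51% in control cells and 20.6% in the other library in subcluster 0, and T cell markers 2.6% and 19.1% in subcluster 5.

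Ccl9, a macrophage chemokine that binds Ccr1, did not keep one direction. It was counted in 42.8% of control cells and 31.2% of cells of the library labelled depleted in subcluster 0, in 33.3% and 26.1% in subcluster 3 and in 42.5% and 40% in subcluster 4. In subcluster 5 it was at 39.1% in control cells and 66.7% in the library labelled depleted. That difference of 27.6 points was the largest above 0 among the 40 and stands against -11.6 points in subcluster 0. In subcluster 5 the neighbouring gene Ccl6 differed by -12.8 points.

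Ccl24, an attractant of eosinophils through Ccr3 that alternatively activated macrophages make, was counted in 13.8% of control cells and 3.1% of cells of the library labelled depleted in subcluster 0, and in 10% and 21.7% in subcluster 3. In subcluster 4 the shares were 7.5% and 0%, and in subcluster 5 they were 17.4% and 0%. The differences were -10.7 and -17.4 points in subclusters 0 and 5 and 11.7 points in subcluster 3.

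Ccl3 and Ccl4, the macrophage inflammatory proteins 1-alpha and 1-beta, which attract monocytes and lymphocytes, were at 10% or less in control fibroblasts. Ccl3 was at 2.8% and 6.2% in subcluster 0, 3.3% and 4.3% in subcluster 3, 7.5% and 20% in subcluster 4 and 4.3% and 0% in subcluster 5. Ccl4 was at 5.5% and 3.1%, 6.7% and 4.3%, 10% and 0%, and 0% and 4.8% in the same order. Only subcluster 4 took either of them past the limit, with differences of 12.5 points for Ccl3 and -10 points for Ccl4. On the coarse shares of that subcluster, the limit of 10 points is a single step of the library labelled depleted.

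By mean share over the 4 subclusters of the control library the order was Ccl6 (73.4%), Ccl9 (39.4%), Ccl5 (20.9%), Ccl2 (17.4%), Ccl7 (14.8%), Ccl24 (12.2%), Ccl4 (5.6%), Ccl3 (4.5%), Ccl12 (3.2%) and Ccl8 (2.8%). Across subclusters the values of Ccl6 did not overlap those of Ccl9 (33.3% to 42.8%), nor did those of Ccl9 overlap those of Ccl5 (17.4% to 27.5%). Ccl5, Ccl2 (10% to 26.1%), Ccl7 (10% to 21.7%) and Ccl24 (7.5% to 17.4%) each overlapped the next in order, as did the rarer genes. In the library labelled depleted Ccl2 (26.4%) and Ccl7 (21.2%) stood after Ccl6 (53.8%) and Ccl9 (41%), and Ccl5 was at 7.4%, close to Ccl3 (7.6%) and Ccl24 (6.2%).

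The subclusters differed in how many members passed 10 points. In subcluster 0 none was higher, with 10.8% of all genes higher, and 4 were lower, with 9.85% of all genes lower. In subcluster 3 the counts were 3 higher (all genes 13.1%) and 2 lower (17.1%), and in subcluster 4 they were 3 higher (24.7%) and 3 lower (20.3%). In subcluster 5, 1 was higher (21.2%) and 4 were lower (14.3%). The median difference of the 10 members was -4.5, 1.0, -3.75 and -5.85 points in subclusters 0, 3, 4 and 5, while the median over all genes was 0 in each. Differences between subclusters were not tested.

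The genes whose shares ran most like those of Ccl2 over the 8 values (4 subclusters in 2 libraries) included Il17rd and Sppl2b, at a mean distance of 2.5 and 3.5 points. For Ccl6 they were Slc39a10, Flot1 and Acadsb, at 3.4, 4.9 and 5.4 points. None of these 5 is a chemokine, and closeness over 8 values drawn from the same cells is a description only.

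The tables of whole clusters hold a gene only where 25% or more of the cells in 1 of the libraries had a count and the difference passed a further limit on fold change, so they show a selected part of the family. A gene that a table does not list has no value there. Cluster 5, the fibroblasts as a whole, lists none of the 10, and 10 of the 18 tables list at least 1. Ccl3, Ccl7, Ccl8 and Ccl24 are in none of them. Of the 17 rows, 2 were higher by at least 10 points, where 34.1% of all listed genes were, and 3 were lower, where 38.6% of all listed genes were. As a percent of the 17, 11.8% were higher and 17.6% lower, and the difference from all listed genes was not tested. Among these rows, 6 stood above 90% in both libraries, where a share can hardly differ.

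**Figure D3:**
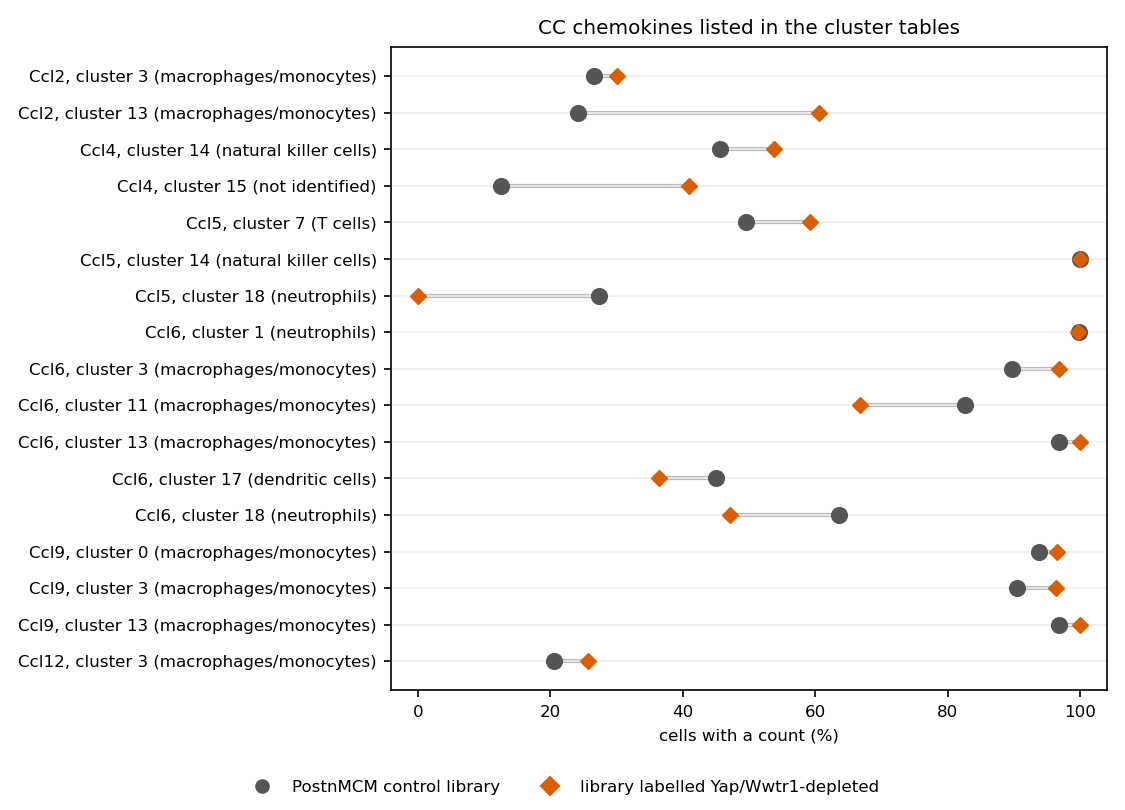
Percent of cells with a count (horizontal axis) for the 17 rows of CC chemokines in the cluster tables, control library as grey circles and library labelled Yap/Wwtr1-depleted as orange diamonds, labelled by cell type. Ccl2 in cluster 13 goes from 24.2% to 60.6%, Ccl4 in cluster 15 from 12.5% to 40.9% and Ccl5 in cluster 18 from 27.3% to 0%. Each of these rows met the limit of 25% of cells only in the library with the higher share.

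Among macrophages and monocytes, the largest difference was that of Ccl2 in cluster 13. It was counted in 24.2% of control cells and 60.6% of cells of the library labelled depleted, a difference of 36.4 points in a table where 41.7% of listed genes were higher and the median difference was 4.6 points. The cluster carried monocyte markers in both libraries, with Ly6c2 at 95.8% and 88.7% and F13a1 at 94.7% and 97.2%. Some markers of other cells differed by more than these monocyte markers, though by less than Ccl2. C1qb was at 52.6% and 26.8%, the neutrophil gene S100a9 at 56.8% and 29.6% and the dendritic cell gene Batf3 at 27.4% and 7%. The macrophage gene Fcgr1 went the other way (80% and 90.1%), and the neutrophil gene S100a8 differed little (51.6% and 50.7%). The part of these markers in the Ccl2 share was not tested. Ccr2, the receptor of Ccl2, was counted in 100% of cells of cluster 13 in both libraries. In cluster 3, Ccl2 was at 26.6% and 30.1% and its neighbour Ccl12 at 20.6% and 25.7%, neither of which reached 10 points.

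Ccl9 was counted in nearly all macrophages and monocytes of both libraries, at 93.7% and 96.5% in cluster 0, 90.4% and 96.3% in cluster 3 and 96.8% and 100% in cluster 13. Ccl6 was at 89.7% and 96.7% in cluster 3 and at 96.8% and 100% in cluster 13. Cluster 11 differed, with Ccl6 at 82.6% in the control library and 66.7% in the library labelled depleted, a difference of -15.9 points, in a table where 44.2% of listed genes were lower. In that cluster the neutrophil markers S100a9 (63.9% and 31.2%) and Retnlg (37.5% and 8.3%) were lower too, and their part in the Ccl6 share was not tested. All 6 macrophage markers listed in cluster 11 were below the control as well, from Fcgr1 (49.3% and 41.7%) to Csf1r (79.2% and 50%), and Flt3, a dendritic cell marker, was at 50% and 75%.

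In neutrophils Ccl6 was at 99.7% and 99.6% in cluster 1 and at 63.6% and 47.1% in cluster 18, a difference of -16.5 points in a table whose median difference was -11.8 points and in which 51.9% of listed genes were lower. Centred on that median, the difference of Ccl6 was -4.7 points. Ccl5 was listed in cluster 18 too, at 27.3% in the control library and 0% in the other. It met the limit of 25% only in the control, and the step width of shares was not measured for whole clusters. In dendritic cells (cluster 17) Ccl6 was at 45% and 36.4%.

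Ccl5 and Ccl4 were listed in lymphoid clusters. Ccl5 was counted in 100% of NK cells (cluster 14) of both libraries. In T cells of cluster 7 it was at 49.5% in the control library and 59.1% in the library labelled depleted, while the median listed gene of that table was at -8.5 points. The NK markers Nkg7 (58.6% and 82.4%) and Klrb1c (5.1% and 32.1%) were higher in that cluster too, while Cd3d (96% and 95%) and Cd3g (96% and 96.9%) differed little, and the part of these markers in the Ccl5 share was not tested. Of the NK markers, 3 are listed in cluster 14, Ncr1 at 98.7% and 88.5%, Klrb1c at 73.4% and 100% and Klra8 at 21.5% and 26.9%. Ccl4 was at 45.6% and 53.8% in NK cells. In cluster 15, which has no cell type name, Ccl4 went from 12.5% to 40.9%, 28.4 points higher, with 38.2% of listed genes higher there. Lineage markers of that cluster differed too, with Cd4 at 34.4% and 63.6%, Cd8a at 56.2% and 27.3% and Clec9a, a dendritic cell gene, at 40.6% and 63.6%, and their part in the Ccl4 share was not tested.

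Of 11 other CC ligands, 4 have rows in the subcluster tables, Ccl17, Ccl22, Ccl25 and Ccl27a, and none is in a cluster table. Of their 16 differences none was higher and 4 (25%) were lower by at least 10 points, beside 17.4% higher and 15.4% lower over all genes. These were Ccl17 in subcluster 5 (26.1% and 0%), Ccl25 in subcluster 3 (23.3% and 4.3%) and Ccl27a, a chemokine of skin that other tissues also make, in subclusters 4 (52.5% and 30%) and 5 (43.5% and 19%).

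Of 13 CC receptors and scavengers, 7 have rows in the subclusters, where 2 of 28 differences (7.1%) were higher and 2 lower, beside 17.4% and 15.4% over all genes. The list had low mean shares there, 5.8% to 11.6%, and its difference from all genes was not tested. The lower ones were Ccr1 in subclusters 0 (20% and 6.2%) and 4 (25% and 0%). The higher ones were Ccr9, a receptor of developing and gut-homing T cells, in subclusters 4 (0% and 30%) and 5 (0% and 23.8%). All 5 T cell markers with a value were above the control in both of these subclusters, and their part in the Ccr9 shares was not tested. Over the clusters, 2 of 13 receptor rows (15.4%) were higher and 5 (38.5%) lower, beside 34.1% and 38.6% of all listed genes. Ccr9 was also higher in T cell clusters 4 (6% and 46.5%) and 8 (36.3% and 62.5%), and Ccr2 was lower by at least 10 points in 4 of its 6 tables, by most in cluster 12 (86.5% and 48.1%). In NK cells Ccr2 was at 89.9% and 69.2%.

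**Figure D4:**
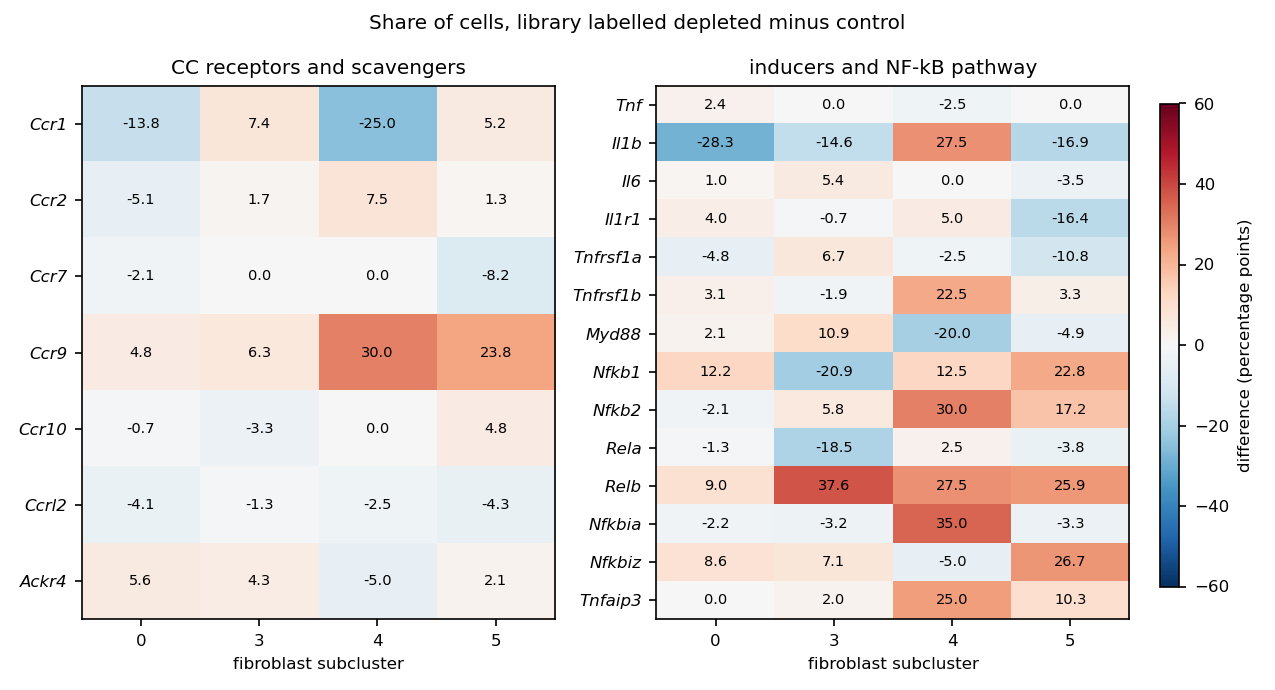
Difference in the percent of cells with a count, library labelled depleted minus control library, in percentage points (colour and numbers), for CC receptors and scavengers (left) and for inducers and NF-kB pathway genes (right) in fibroblast subclusters 0, 3, 4 and 5. Relb is above 0 in all 4 columns, at 9.0, 37.6, 27.5 and 25.9 points, and Il1b runs from -28.3 points in subcluster 0 to 27.5 points in subcluster 4.

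Of 15 genes that induce CC chemokines or belong to the NF-kB pathway, 14 have rows in the subclusters, and 15 of 56 differences (26.8%) were higher and 8 (14.3%) lower, beside 17.4% and 15.4% over all genes and 24.6% and 21.0% over the genes' shares of at least 25% in either library. Subcluster 4, where 24.7% of all genes were higher, holds 7 of the 15. Relb, a subunit of the noncanonical NF-kB pathway, was above the control in all 4 subclusters, with 44.1% and 53.1% in subcluster 0, 23.3% and 60.9% in subcluster 3, 42.5% and 70% in subcluster 4 and 21.7% and 47.6% in subcluster 5. Il1b, which encodes the cytokine interleukin-1 beta, was lower in subclusters 0, 3 and 5 and higher in subcluster 4 (22.5% and 50%). Nfkbia (55% and 90%) and Tnfaip3 (15% and 40%) were higher in subcluster 4, and Myd88 (60% and 40%) was lower there. Over the clusters the list had 35 rows, of which 17 (48.6%) were higher and 7 (20%) lower, beside 34.1% and 38.6% of all listed genes. Nfkbiz, an NF-kB cofactor for a set of inflammatory genes, was above the control in 7 of the 7 cluster tables that list it, by 4.9 to 24.2 points, and in 3 of the 4 fibroblast subclusters, the exception being subcluster 4 (55% and 50%). In cluster 17 all 3 listed genes were lower, Relb (40% and 9.1%), Tnfaip3 (30% and 0%) and Il1b (45% and 27.3%). Relb was at 32.6% and 37.5% in cluster 11. How many of all genes were above the control in every table that lists them was not counted.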

How the data were processed

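Shares of cells were taken for 2 libraries, 1 per genotype, with 10x Chromium 3′ chemistry. Per the labels, reads were processed with Cell Ranger 6.1.1 on GRCm39, and per the study's methods the libraries were combined without depth normalization, and counts were normalized in Seurat by SCTransform. Each deposited table compares both libraries within a cluster, or within a subcluster of the fibroblast cluster normalized again on its own. The deposited fractions of cells with a corrected count above 0 were multiplied into percents. S100a8 was at 32.6% of control cells in the fibroblast cluster and at 78.3% to 91.0% in the 4 subclusters analysed here. Since the normalization and the cells both differ, no chemokine share was compared between cluster and subcluster tables, and the cause of this gap was not tested. The deposited fold changes and p-values hold the authors' own comparison and were not used. Checked on the tables, each row of the 18 cluster tables met the limit of 25% of cells in either library and the limit of 0.25 in log2 fold change that the authors' code sets. The 4 subcluster tables, with 15059 genes each, have no such limit. No column of per-sample values was left unmatched.

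With 1 library per group no test was made. The tables give neither cells nor counts per library, so depth is unknown and no interval is given. The authors' methods name no doublet caller. The study's methods place collection 1 day later than the labels do. Members and gene lists were chosen with earlier results of these data known. Named genes were all members, the fixed lists of other ligands, receptors, inducers and markers, and, for the 2 members with the largest mean absolute difference, the 3 nearest genes over 8 shares. Of these, 2 genes are not reported here, and counts of their list leave them out. Alternatives were limits of 5 and 20 points, a 1.5-fold ratio of shares after adding 1 point, centring on the median difference of genes detected in at least 25% of cells, and leaving out tables. Cluster names follow the study. Counting was tested on simulated data. Analyses used Python 3.11.15, pandas 2.3.3 and NumPy 2.4.6. Amino acid sequences were not used here.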

Additional observations from a re-analysis of the deposited data

Results flagged for a closer look

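For 3 members the difference between libraries was at least 10 points in opposite directions in 2 fibroblast subclusters. Ccl2 was at 25 points in subcluster 4 and at -11.8 points in subcluster 5. Ccl9 was at -11.6 points in subcluster 0 and at 27.6 points in subcluster 5. Ccl24 was at 11.7 points in subcluster 3 and at -17.4 points in subcluster 5. Each group is 1 library, so the difference between subclusters was not tested.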

How the results depend on the processing

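No paired analysis was possible because there was 1 library per genotype. Of the 40 shares in fibroblast subclusters, 7 were higher and 13 lower by at least 10 points. A limit of 20 points left 2 higher and 1 lower. A 1.5-fold ratio gave 11 higher and 16 lower, and under it Ccl6 was lower in subcluster 4 only. Keeping shares of at least 25% of cells in either library gave 4 higher and 7 lower. Without subclusters 0 and 4, which the study describes as mostly from control hearts, 4 were higher and 6 lower. Leaving out single subclusters was added after seeing the data. Without subcluster 3 or without subcluster 4, 4 were higher, and the other such counts stayed within 1.5 times. Of the 17 rows in cluster tables, 2 were higher and 3 lower. A limit of 5 points gave 7 higher, a limit of 20 points and a 1.5-fold ratio each gave 1 lower, and 1 was higher in the immune clusters the study names. Centring on the median difference turned no direction of a difference past 10 points, and 3 of 57 single differences crossed the limit: Ccl24 in subcluster 4 (-10.0), Ccl5 in cluster 7 (18.1) and Ccl6 in cluster 18 (-4.7). Why the counts moved was not tested. Small numbers of cells, which the tables do not give, limit the shares, most of all those of subcluster 4 with its steps of 10 points.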
